A study of Mus musculus with 19 samples.

Results

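The livers of 3 KO mice on a normal diet (ND) were compared with those of 3 WT mice on the same diet, across all 22180 genes that the array annotation pairs with 1 symbol. These 6 arrays are 6 of 19 in the series, and were taken by the genotype code and diet at the end of each sample title. RNA from whole liver of mice 2 to 3 months old, kept 4 weeks on their diet, was hybridised to 1 Affymetrix array per sample. The other groups are KO and WT on a high-fat diet (HFD, 3 arrays each) and the genotype code TG on both diets. The labels do not spell out the codes, and the gene Kcp, the kielin/chordin-like protein, is named in the series title alone. They give no strain, sex, litter, time of harvest or batch, nor how the KO allele was made. Each title has its own animal number, and the arrays were taken as separate mice on that basis; p-values measure the spread between these samples. Animal numbers run together within a genotype, so genotype and cohort cannot be told apart.

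Kcp is a secreted protein with cysteine-rich repeats that binds BMP and TGF-beta ligands, and is known to raise BMP signalling and to lower that of TGF-beta and activin. BMPs act through serine/threonine kinase receptors and SMAD transcription factors, and in liver they are best known for driving hepcidin, the hormone that limits iron uptake. The liver also has a strong daily rhythm, in which the activators Clock and Arntl and their repressors turn over and carry much of lipid, glucose, bile acid and haem metabolism with them.

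Kcp itself had log2 values of 2.15, 1.64 and 2.30 in the 3 KO livers, against 2.41, 2.82 and 2.42 in the 3 WT livers. The groups did not overlap, but the difference of -0.52 did not pass (limma, SE 0.20, adjusted p = 0.215). The gene has 1 probe set, its values lie close to the log2 level of 2, and where the probes sit relative to any deleted part is not known, so the KO label is not checked by them. Of the 20 measured genes next to Kcp, 10 on each side on chromosome 6, limma called 0 on either diet. Their differences on ND ran from -0.99 (Tspan33) to 0.39. With Kcp itself counted in, 4 genes had an unadjusted p under 0.05 on ND (limma): Kcp, Tspan33, Smo and Opn1sw. Of all 22180 genes, 2943 had one.

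The arrays carried the markers of liver in both groups. The albumin gene Alb averaged 12.34 in KO and 12.30 in WT on the log2 scale, and 0 of 22 secreted hepatocyte proteins passed (limma, 1 at an unadjusted p under 0.05). Array medians lay between 0.9828 and 1.055, the correlations between the 6 arrays were between 0.9672 and 0.9768, and 56.5% of genes had a mean log2 value below 2, where background limits what can be seen. In whole tissue, fewer cells of a type and less RNA per cell cannot be told apart. Among markers of other cells, 0 of 15 endothelial, 16 stellate, 14 T and NK cell, 10 B and plasma cell, 12 neutrophil, 3 red cell and 13 pancreas, fat and muscle markers passed in limma, with 3, 2, 1, 1, 0, 2 and 0 of them at an unadjusted p under 0.05. Over all 22180 genes, 2943 had such an unadjusted p (limma), and counts at that cut here and below stand against this share. All 14 T and NK cell, 12 neutrophil and 3 red cell markers averaged below 2 in both groups. So did 9 of 10 B and plasma cell markers and 12 of 13 pancreas, fat and muscle markers, so their lack of calls says little. The summed linear level of the T and NK cell markers was 25.68 to 26.52 in KO and 28.42 to 29.49 in WT. That of the B and plasma cell markers was 26.43 to 35.09 in KO and 47.43 to 52.57 in WT. Among the latter, Ighm differed by -1.45 and did not pass. Of 26 Kupffer cell and macrophage markers 1 fell (3.85%, near the 2.98% of all genes), the scavenger receptor Marco (-1.76, adjusted p = 0.017), with a list median of 0.17 and summed levels of 1005 to 1262 in KO and 952.8 to 1085 in WT. Of 7 cholangiocyte markers 1 fell, the transcription factor Sox9 (-1.69, adjusted p = 0.023), while the keratin Krt19 averaged 0.73 in KO and 0.72 in WT. The call of Marco was lost without 4 of the 6 arrays (adjusted p up to 0.0921, without KO replicate 2) and Sox9 without 4 (0.123, without WT replicate 2).

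On the normal diet, 661 genes differed between KO and WT, 307 higher and 354 lower in KO. These were genes with an adjusted p under 0.05, from a limma model of all 19 arrays with Benjamini-Hochberg adjustment over all 22180 genes. They make up 2.98% of the genes tested, 1.38% higher and 1.6% lower, and the median difference over all genes was near 0 (-0.001947). In 658 of the 661 the 3 arrays of one genotype did not overlap the 3 of the other, as in 18.1% of all genes. The median size of a called difference was 0.896 on the log2 scale, and 150 genes rose and 127 fell by at least 1. The count was 353 without KO replicate 2, 377 without WT replicate 2 and 423 without WT replicate 3.

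The 2 largest falls among the called genes were in the alpha-1-antitrypsin family. These genes encode secreted inhibitors of serine proteases, and mouse carries several near-identical copies side by side on chromosome 12. Serpina1d stood at 2.38, 0.76 and 2.19 in KO livers, against 11.08, 11.09 and 10.96 in WT livers. The difference was -9.26 (SE 0.29, adjusted p = 1.14e-12), and no KO array came near a WT array. Serpina1e stood at 6.37, 5.79 and 6.41 in KO, against 10.79, 10.38 and 10.48 in WT, a difference of -4.36 (SE 0.37, adjusted p = 1.4e-06). Its KO arrays kept a clear signal, unlike those of Serpina1d.

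The other copies gave smaller differences, none of which passed. Serpina1a averaged 7.39 in KO and 7.86 in WT (-0.47, adjusted p = 0.235), Serpina1b 1.76 and 2.17 (-0.42, adjusted p = 0.197) and Serpina1c 11.18 and 11.45 (-0.27, adjusted p = 0.389). Probes of such similar genes can bind more than 1 copy, so a value may belong in part to a neighbour. Further along the same cluster, Serpina11 was higher in KO, at 7.40, 7.40 and 7.68 against 6.20, 6.00 and 6.08 in WT (1.40, SE 0.23, adjusted p = 0.00159). Serpina12, the insulin-sensitising adipokine vaspin, was also higher, at 4.85, 4.64 and 4.13 in KO against 1.56, 3.37 and 3.09 in WT (1.87, SE 0.33, adjusted p = 0.00293). Serpina6, the corticosteroid-binding globulin, differed by 0.42 (adjusted p = 0.106), and the acute-phase Serpina3n by -0.04 (adjusted p = 0.964); Serpina10 was level between the groups (adjusted p = 0.998). In all, 2 of the 11 measured genes of this list rose and 2 fell, 36.4% against 2.98% of all genes, so the list did not move as a block. With the clock score described below as a covariate, Serpina11 lost its call (1.46, adjusted p = 0.166), and the other 3 kept theirs. Serpina12 lost its call when the 6 arrays compared were fitted alone (adjusted p = 0.0807).

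**Figure D1:**
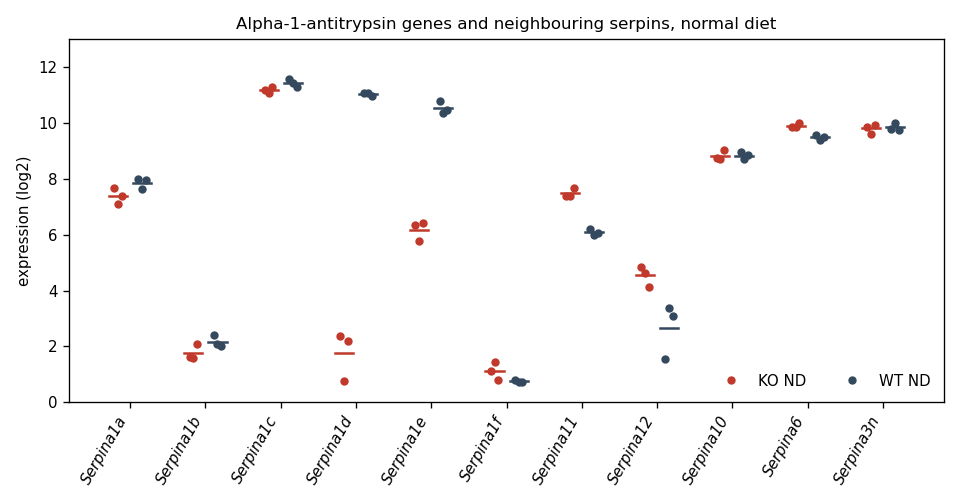
Log2 expression (vertical axis) of 11 serpin genes in each KO ND (red) and WT ND (dark blue) liver; bars are group means of 3 arrays. Serpina1d lies at 0.76 to 2.38 in KO and 10.96 to 11.09 in WT, while Serpina1c lies above 11 in every array.

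The promoters of the family are nearly the same, which shows how alike the copies are. Over the 300 bases around the start of each gene (250 before and 50 after, RefSeq GRCm38.p6), Serpina1d and Serpina1c were identical at 265 of 290 aligned positions, 91.4%, with 24 mismatches and 1 gap. Serpina1d is printed beside Serpina1c because Serpina1d lost most of its signal in KO and Serpina1c did not pass; capitals mark the mismatched bases between them. Serpina1d lies on the minus strand at chr12:103773584-103773883, and Serpina1c on the minus strand at chr12:103904901-103905200.
Serpina1d: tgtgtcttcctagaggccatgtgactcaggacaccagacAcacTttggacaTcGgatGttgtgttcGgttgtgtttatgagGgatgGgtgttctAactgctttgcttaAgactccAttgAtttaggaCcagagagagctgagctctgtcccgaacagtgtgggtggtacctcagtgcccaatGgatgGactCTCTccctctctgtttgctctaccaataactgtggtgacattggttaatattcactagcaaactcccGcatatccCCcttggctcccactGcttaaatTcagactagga
Serpina1c: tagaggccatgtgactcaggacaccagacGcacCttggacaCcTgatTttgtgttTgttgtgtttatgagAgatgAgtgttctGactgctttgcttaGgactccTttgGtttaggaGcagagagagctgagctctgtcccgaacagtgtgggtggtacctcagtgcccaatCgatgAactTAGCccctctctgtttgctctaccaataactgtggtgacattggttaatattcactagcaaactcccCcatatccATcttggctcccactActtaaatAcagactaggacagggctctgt
Across the 5 copies, identity between pairs of promoters lay between 91.4% and 97.6%. Serpina1e and Serpina1b, which differ in their response (-4.36, and -0.42 without passing), were the closest pair, at 97.6% of 250 aligned positions. Serpina1d and Serpina1e, which both fell, were identical at 97% of 234 positions.

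Among the lists counted here, the clock lists had the highest shares of called genes. Of 11 evening-peaking clock genes measured, 7 rose and 1 fell in KO, and of 5 morning-peaking ones 0 rose and 3 fell, against 2.98% of all genes in either direction. Their median differences were 0.75 and -0.96. Ciart, a repressor of Clock and Arntl, had 4.98, 5.61 and 5.73 in KO, against 2.23, 1.59 and 2.29 in WT (3.40, SE 0.34, adjusted p = 1.02e-05). The period gene Per1 had 5.93, 6.29 and 6.34 in KO, against 3.94, 3.93 and 3.05 in WT (2.55, adjusted p = 0.000799). Every KO array stood more than 1.9 above the highest WT array in both genes. Per3 (1.65), the PAR-domain factors Dbp (1.32), Tef (0.75) and Hlf (0.62), which drive rhythmic output genes, and the repressor Bhlhe40 (0.86) rose as well, by smaller steps.

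Nr1d1, the nuclear receptor REV-ERB-alpha that represses Arntl, was the 1 gene of its list called lower. It had 4.98, 4.51 and 4.57 in KO, against 6.55, 7.10 and 7.31 in WT (-2.30, SE 0.40, adjusted p = 0.00278). The activators fell with it: Arntl had 4.00, 3.71 and 3.26 in KO, against 5.09, 6.33 and 5.16 in WT (-1.87, adjusted p = 0.00112), and Clock 7.74, 7.88 and 7.73 in KO, against 8.60, 8.96 and 8.67 in WT (-0.96, adjusted p = 0.000297). Npas2, a partner of Arntl that can stand in for Clock, had 0.66, 0.58 and 0.58 in KO, against 2.46, 4.50 and 1.10 in WT (-2.08, adjusted p = 0.0346). Its WT arrays were spread over more than 3 log2 units, while its KO arrays lay together near 0.6. Without WT replicate 2 the difference of Npas2 was -1.17 (adjusted p = 0.093). The cryptochromes Cry1 (0.41) and Cry2 (0.09), Nr1d2 (0.27), Bhlhe41 (-0.52) and Nfil3 (-0.01) did not pass. Tef, Hlf, Bhlhe40 and Npas2 lost their calls without 3, 6, 2 and 5 of the 6 arrays (adjusted p up to 0.113, 0.123, 0.0527 and 0.108). With the 6 arrays alone Dbp (adjusted p = 0.0986), Tef (0.103) and Npas2 (0.23) lost theirs. The second, dim probe set of Tef differed by -0.29, and the mean of its probe sets by 0.23 (adjusted p = 0.654).

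**Figure D2:**
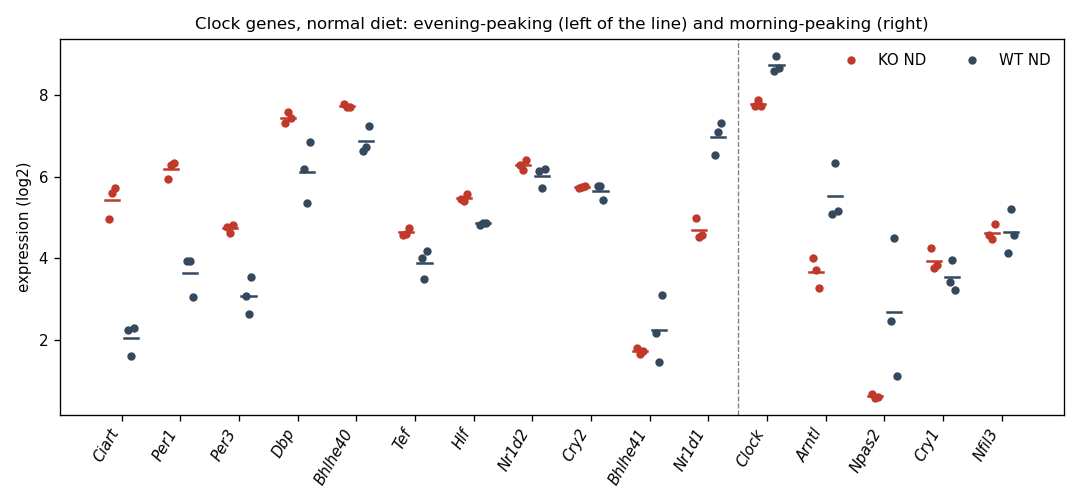
Log2 expression (vertical axis) of 16 clock genes in each KO ND (red) and WT ND (dark blue) liver, evening-peaking genes left of the dashed line and morning-peaking genes right of it; bars are group means of 3 arrays. KO arrays of Ciart, Per1 and Per3 lie above all WT arrays, and those of Nr1d1, Clock, Arntl and Npas2 below them.

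Genes known to follow the clock changed too. Of 22 clock output genes 10 rose and 4 fell (63.6%, against 2.98% of all genes), with a median of 0.90. The deubiquitinase Usp2 had 7.01, 7.35 and 7.40 in KO, against 3.37, 2.57 and 3.64 in WT (4.06, SE 0.26, adjusted p = 6.07e-08). Rgs16, a brake on G protein signalling, had 8.70, 8.50 and 8.11 in KO, against 1.90, 3.46 and 5.12 in WT (4.94, SE 0.69, adjusted p = 0.000405), with a wide spread in WT. Wee1, the kinase that holds back entry into mitosis, rose by 3.22, Coq10b, needed for coenzyme Q function, by 2.07 and the ganglioside enzyme St3gal5 by 1.91. The vasopressin receptor Avpr1a (-2.14), the ubiquitin ligase Dtx4 (-1.59) and the coenzyme Q kinase Coq8a (-1.44) were among those that fell. Haem synthesis rises and falls with the clock through Alas1, its rate-limiting enzyme, which had 9.97, 10.34 and 10.36 in KO, against 7.16, 7.07 and 7.64 in WT (2.93, SE 0.37, adjusted p = 0.000162). Alad, the next enzyme, rose by 1.04 (adjusted p = 0.00711). In all, 2 of 7 haem synthesis genes rose (28.6%, against 2.98% of all genes), a list chosen after its values were seen.

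A clock score, the mean of the 11 evening genes minus the mean of the 5 morning genes, was 1.18, 1.36 and 1.48 in the KO arrays and -0.05, -1.37 and 0.37 in the WT arrays. The difference was 1.69 (exact permutation test, two-sided, p = 0.1, which is the lowest value 3 against 3 allows). The groups did not overlap, and WT arrays were spread more widely (SD 0.91) than KO arrays (SD 0.15). On HFD the scores of KO and WT lay close together, with means of 2.04 and 1.82. The time of harvest is not given, so genotype and time of day cannot be told apart for any gene group here. With the score of each array as a covariate in the limma model, 69 genes were called in place of 661, 37 higher and 32 lower, and 65 of these were among the 661. The score is built from genes of the comparison and differs between the groups. The standard error of a gene was larger in this fit by a median of 1.68 times over all genes. Of 125 genes followed here that lost their call, 54 had a difference as large or larger in the same direction, 60 a smaller one by up to 1.5 times, and 11 a smaller one beyond that or an opposite one. Among the genes named here that kept their call were Serpina1d, Serpina1e, Ciart, Usp2, Wee1, Coq10b, Lpin1, Thrsp, Gstp3, Mme, Ctse, Cldn1, Nampt, Agxt and Asic5, while Per1, Per3, Dbp, Tef, Hlf, Bhlhe40, Nr1d1, Clock, Arntl, Npas2, Rgs16, Dtx4, Coq8a, Alas1, Alad, Marco and Sox9 lost theirs. The differences of Per1 (2.45), Nr1d1 (-3.03), Clock (-0.82), Hlf (0.69), Coq8a (-1.47), Alas1 (2.71) and Marco (-1.65) stayed near their sizes without the score. Those of Dbp (0.09), Arntl (-0.67), Per3 (0.83), Tef (0.35) and Bhlhe40 (0.42) were smaller by more than 1.5 times. Npas2 changed sign in that fit (0.29, adjusted p = 0.951).

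The sequences that the clock acts on could be read in some of these promoters. Clock and Arntl bind the E-box CACGTG, and Dbp, Tef and Hlf bind the D-box TTATGTAA; both strands were searched, and the motifs do not overlap one another in the promoters printed here. Of 33 clock and clock output genes with a promoter in the RefSeq table, 8 held an E-box and 2 a D-box, where 8.09% and 1.11% of all 27025 genes held one in at least 1 of their promoters. Capitals mark the E-boxes in Ciart and Per1, the E-box and the D-box (read from the other strand) in Coq10b, and the D-boxes in Per3. These 4 genes rose in KO and are a selection. Of the other E-box holders Tef and Tspan4 rose, while Bhlhe41 (-0.52), Cry1 (0.41) and Lonrf3 (1.22) did not pass (limma). Another promoter of Per1 held no E-box. A further motif, AGGTCA of the ROR element, was found in 9 of the 33 genes, against 18.1% of all genes. Ciart is on the minus strand at chr3:95882179-95882478, Per1 on the plus strand at chr11:69098699-69098998, Coq10b on the plus strand at chr1:55052520-55052819 and Per3 on the minus strand at chr4:151044616-151044915.
Ciart: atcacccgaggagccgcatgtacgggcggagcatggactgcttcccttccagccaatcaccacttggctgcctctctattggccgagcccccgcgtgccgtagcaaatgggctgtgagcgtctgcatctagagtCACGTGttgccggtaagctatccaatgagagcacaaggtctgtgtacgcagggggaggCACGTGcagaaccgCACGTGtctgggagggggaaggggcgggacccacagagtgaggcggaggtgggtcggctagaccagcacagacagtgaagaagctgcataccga
Per1: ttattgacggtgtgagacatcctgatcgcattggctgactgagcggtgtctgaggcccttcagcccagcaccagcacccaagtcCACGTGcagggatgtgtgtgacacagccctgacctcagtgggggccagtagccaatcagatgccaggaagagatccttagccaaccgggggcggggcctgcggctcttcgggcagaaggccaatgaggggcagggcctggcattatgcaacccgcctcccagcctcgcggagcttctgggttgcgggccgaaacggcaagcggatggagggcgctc
Coq10b: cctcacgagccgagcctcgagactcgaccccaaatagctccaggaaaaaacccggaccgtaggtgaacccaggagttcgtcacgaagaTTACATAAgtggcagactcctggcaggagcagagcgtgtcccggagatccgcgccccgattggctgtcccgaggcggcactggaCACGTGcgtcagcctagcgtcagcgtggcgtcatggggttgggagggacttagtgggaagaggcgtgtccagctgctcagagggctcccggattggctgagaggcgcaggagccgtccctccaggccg
Per3: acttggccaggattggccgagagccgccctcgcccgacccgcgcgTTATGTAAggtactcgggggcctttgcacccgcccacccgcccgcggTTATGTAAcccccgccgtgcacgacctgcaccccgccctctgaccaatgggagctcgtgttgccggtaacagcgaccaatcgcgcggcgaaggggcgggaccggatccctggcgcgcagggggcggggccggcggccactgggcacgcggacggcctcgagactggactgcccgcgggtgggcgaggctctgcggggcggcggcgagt
Ciart held 3 E-boxes and Per3 held 2 D-boxes within 300 bases. Usp2, the clock output gene with the smallest p, held neither in this window. A match is a description of these letters and was not set against the size of any change.

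Among genes of fat storage, several were higher in KO. Lpin1, the phosphatidate phosphatase that makes diacylglycerol, had 9.59, 10.52 and 10.30 in KO, against 5.61, 5.96 and 5.78 in WT (4.35, SE 0.48, adjusted p = 3.3e-05). Thrsp, a nuclear protein that goes with fat synthesis, had 10.66, 10.57 and 10.63 in KO, against 7.13, 7.83 and 7.80 in WT (3.03, SE 0.30, adjusted p = 1.02e-05). Cidec, which fuses lipid droplets, had 6.85, 5.87 and 5.30 in KO, against 2.48, 2.11 and 2.93 in WT (3.50, SE 0.63, adjusted p = 0.0037). Its relative Cidea had 6.11, 3.80 and 2.59 in KO, against 0.59, 1.63 and 0.75 in WT (3.18, adjusted p = 0.0494), and was led by KO replicate 1. The other risers of the list were Apoa4 (1.83), an apolipoprotein of fat-laden liver, Mogat1 (1.76), which makes diacylglycerol, the fatty acid transporter Cd36 (1.13), the droplet coat protein Plin4 (1.46) and the lipase Mgll (1.08).

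Of 21 lipid droplet genes 7 rose and 0 fell (33.3%, against 2.98% of all genes, median 0.64), and 14 did not pass, among them the coat protein genes Plin1 (-0.15), Plin2 (-0.30) and Plin3 (-0.22). Of 25 genes of fatty acid and triglyceride synthesis 4 rose, Lpin1, Lpin2 (1.29), Dgat2 (0.48) and Thrsp. In this list 1 fell, the elongase Elovl3 (-1.85, SE 0.27), and the median was 0.31 (20% called). The second probe set of Lpin2, with a mean log2 value of 5.71, differed by 0.29, and the mean of both by 0.79. Fatty acid oxidation had 2 of 30 higher (6.67%), the peroxisomal thioesterase Acot3 (3.08) and the hydroxylase Cyp4a12a (0.78). Cholesterol synthesis and uptake had 0 of 19 past the threshold in limma, 5 at an unadjusted p under 0.05, all of them lower, and a median of -0.40. Mfsd2a, which carries lysolipids with long-chain fatty acids, was a further large rise, at 9.36, 9.56 and 9.51 in KO against 6.66, 6.17 and 6.26 in WT (3.12, adjusted p = 0.000462). Without KO replicate 1 Cidea lost its call (adjusted p = 0.221), and it lost it without 5 of 6 arrays in all. Mgll, Cd36, Plin4, Dgat2 and Cyp4a12a lost theirs without 5, 4, 6, 4 and 4 arrays (adjusted p up to 0.104, 0.103, 0.116, 0.0916 and 0.132). When the clock score was a covariate, all the called lipid genes named here lost their calls apart from Lpin1 and Thrsp (adjusted p up to 0.722, for Cyp4a12a). Several of these differences were as large or larger in that fit, with 3.91 for Cidec, 4.66 for Cidea, 2.03 for Apoa4, 2.26 for Mogat1, 1.32 for Cd36 and 1.71 for Plin4, while Acot3 (2.24), Mgll (0.86) and Cyp4a12a (0.56) were smaller.

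Some of the genes that make glucose and glycogen were higher in KO too. Pck1, which commits carbon to glucose synthesis, had 10.78, 11.14 and 11.27 in KO, against 10.35, 10.00 and 10.12 in WT (0.91, SE 0.17, adjusted p = 0.00598). Slc37a4, the glucose 6-phosphate transporter of the endoplasmic reticulum, rose by 0.89, pyruvate carboxylase Pcx by 0.59, glycogen synthase Gys2 by 0.62 and the branching enzyme Gbe1 by 0.97. Ppp1r3g, a subunit that points a phosphatase at glycogen, rose by 0.83, while glycogenin Gyg, which primes the polymer, fell by 1.00. In all, 6 of 14 genes rose and 1 fell (50%, against 2.98% of all genes, median 0.53), and 7 did not pass, among them glucose 6-phosphatase G6pc (0.33, adjusted p = 0.77), Fbp1 (-0.09) and Ppp1r3c (-0.99). Gys2 lost its call with the 6 arrays alone (adjusted p = 0.065). Pfkfb3, which makes the activator of glycolysis, had 4.11, 4.79 and 4.77 in KO, against 1.75, 2.17 and 2.09 in WT (2.55, adjusted p = 0.00832). It was 1 of 2 risers among 14 genes of glycolysis and glucose uptake, with the pyruvate dehydrogenase kinase Pdk1 (0.85), and 1 fell, the glucokinase regulator Gckr (-0.43). Pdk1 and Gckr lost their calls without 5 and 6 of the 6 arrays (adjusted p up to 0.207 and 0.158).

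Genes under insulin went both ways, with 3 of 20 higher and 2 lower (25%, against 2.98% of all genes, median 0.01). Igfbp2, a binding protein for insulin-like growth factors, had 5.95, 6.07 and 6.99 in KO, against 8.16, 8.11 and 8.22 in WT (-1.83, SE 0.26, adjusted p = 0.000577). The insulin receptor substrate Irs1 fell by 0.98 and the kinase subunit Pik3r1 rose by 0.72, beside the signalling inhibitor Socs2 (1.99), which lost its call without 5 of 6 arrays (adjusted p up to 0.197). The transcription factor Foxo3 rose by 0.47 and lost its call without any 1 of the 6 arrays (adjusted p up to 0.224). Slc37a4, Pcx, Ppp1r3g, Gyg, Irs1 and Pik3r1 lost their calls without 1, 3, 5, 6, 4 and 2 of the 6 arrays (adjusted p up to 0.0653, 0.081, 0.159, 0.169, 0.0831 and 0.0565). All the called glucose and insulin genes named here lost their calls with the clock score as a covariate (adjusted p between 0.0669 and 0.895). In that fit Pfkfb3 (3.40), Igfbp2 (-2.03), Gbe1 (1.15), Slc37a4 (1.04), Pcx (0.65) and Gyg (-1.29) differed by as much or more, and Gys2 (0.40), Irs1 (-0.73) and Foxo3 (0.20) by less.

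**Figure D3:**
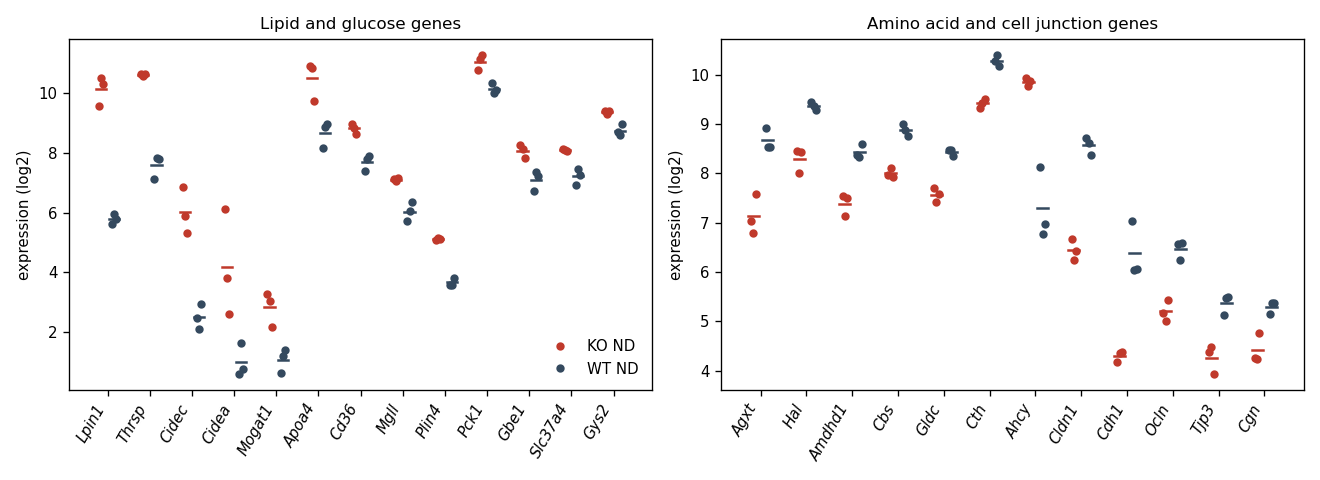
Log2 expression (vertical axes) of 13 lipid and glucose genes (left) and 12 amino acid and cell junction genes (right) in each KO ND (red) and WT ND (dark blue) liver; bars are group means of 3 arrays. The KO arrays lie above all WT arrays in each gene of the left panel, and below them in each gene of the right panel apart from Ahcy.

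Some enzymes of glycine, histidine and sulphur amino acid metabolism were lower in KO. This list of 22 genes was chosen after its values were seen. Of these, 10 fell and 1 rose (50%, against 2.98% of all genes, median -0.33), and 11 did not pass. Agxt, which turns glyoxylate into glycine, had 7.04, 6.79 and 7.58 in KO, against 8.92, 8.55 and 8.54 in WT (-1.53, SE 0.19, adjusted p = 0.000126). The first enzyme of histidine breakdown, Hal, fell by 1.07 and Amdhd1, further along the path, by 1.05. The transsulphuration enzymes Cbs (-0.89) and Cth (-0.86) and the glycine cleavage enzyme Gldc (-0.88) fell to a like extent. Ahcy, which clears S-adenosylhomocysteine, was the riser, at 9.93, 9.77 and 9.87 in KO against 8.13, 6.77 and 6.97 in WT (2.56, adjusted p = 0.00293), but its second probe set differed by -0.50, so its probe sets disagree. In the list of 28 amino acid and urea cycle genes, which shares several members, 5 fell and 1 rose, the alanine aminotransferase Gpt2 (1.11, adjusted p = 0.000582). Asns, asparagine synthetase, had 1.77, 1.95 and 1.56 in KO, against 5.93, 4.26 and 4.14 in WT (-3.02, SE 0.76, adjusted p = 0.0377), and lost its call without any 1 of the 6 arrays (adjusted p up to 0.168, without WT replicate 1). Agxt and Amdhd1 kept their calls with the clock score as a covariate, while Hal, Cbs, Cth, Gldc, Ahcy, Gpt2 and Asns did not (adjusted p between 0.0618 and 0.628).

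Some cell junction genes were lower in KO as well, 9 of 33 with 0 higher, against 1.6% lower of all genes, in a list again chosen after its values were seen (limma, 1 higher at an unadjusted p under 0.05, median -0.20). The other 24 did not pass, and 11 of the 33 had a positive difference. The tight junction protein Cldn1 had 6.67, 6.25 and 6.43 in KO, against 8.72, 8.62 and 8.38 in WT (-2.12, SE 0.15, adjusted p = 3.02e-07). E-cadherin, Cdh1, which joins periportal hepatocytes and bile duct cells, had 4.17, 4.36 and 4.38 in KO, against 7.04, 6.04 and 6.06 in WT (-2.08, SE 0.33, adjusted p = 0.0013). Occludin, Ocln, fell by 1.25, the scaffold Tjp3 by 1.10, the polarity protein Llgl2 by 0.95 and the epithelial splicing factor Esrp2 by 0.59. The summed linear level of the cholangiocyte markers was 17.72 to 25.06 in KO and 31.64 to 54.63 in WT. Of the 7 markers 1 was called, Sox9, the median difference was -0.07, and 6 of 7 averaged below 2 in both groups. The part of these markers in the result was not tested. Of 14 periportal markers, which include Cdh1, Sox9, Hal and Pck1, the first 3 fell and Pck1 rose. Cldn1 and Ocln kept their calls with the clock score as a covariate, and Cdh1, Tjp3, Llgl2 and Esrp2 did not (adjusted p between 0.0973 and 0.384), with differences of -2.38, -0.93, -1.08 and -0.68. Esrp2 also lost its call with the 6 arrays alone (adjusted p = 0.0507).

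Nampt, the rate-limiting enzyme of NAD salvage and a clock target, had 7.53, 7.29 and 7.42 in KO, against 5.44, 5.26 and 5.13 in WT (2.14, SE 0.19, adjusted p = 2.3e-06). Other NAD genes rose too: the nicotinamide riboside kinase Nmrk1 by 1.59, Nmnat2 by 1.34 and the transhydrogenase Nnt by 1.17. They were 4 of 22 genes of NAD synthesis and use (18.2%, against 2.98% of all genes). In this list 0 fell in limma, with 4 lower at an unadjusted p under 0.05. It was chosen after its values were seen, and its median was 0.03. Nampt and Nmnat2 kept their calls with the clock score as a covariate, while Nmrk1 and Nnt lost them (adjusted p = 0.35 and 0.304).

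Of 15 glucocorticoid-responsive genes 5 rose and 0 fell (33.3%, against 2.98% of all genes; limma, 0 lower at an unadjusted p under 0.05, median 0.78). Fkbp5, a chaperone that restrains the glucocorticoid receptor, had 5.56, 6.23 and 6.48 in KO, against 3.23, 3.43 and 3.35 in WT (2.75, SE 0.36, adjusted p = 0.000247). The metal-binding metallothionein Mt2 had 7.25, 6.26 and 9.40 in KO, against 4.41, 4.53 and 4.36 in WT (3.21, adjusted p = 0.00793). Mt1 followed it, at 5.76, 5.28 and 7.75 in KO against 3.79, 3.88 and 4.16 in WT (2.32, adjusted p = 0.015), so KO replicate 3 was high in both. Without that array Mt1 lost its call (adjusted p = 0.062), and it lost it without 3 arrays in all. The phosphatase Dusp1 (1.08) and the zinc finger factor Zbtb16 (2.68) completed the 5, and lost their calls without 4 and 5 arrays (adjusted p up to 0.12 and 0.144). Apart from Fkbp5, these genes lost their calls with the clock score as a covariate (adjusted p up to 0.501, for Mt1), with differences of 3.07 for Mt2, 2.09 for Mt1, 1.71 for Dusp1 and 3.80 for Zbtb16. Mt2 lost its call with the 6 arrays alone as well (adjusted p = 0.0503).

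Other stress genes changed in small numbers. Of 16 heat-shock genes 3 rose (18.8%, against 2.98% of all genes), the inducible Hspa1b (2.34), Hsph1 (1.34) and Dnajb1 (0.59). They lost their calls without 5, 3 and 6 arrays (adjusted p up to 0.108, 0.0526 and 0.18). Herpud1, which helps clear misfolded proteins from the endoplasmic reticulum, had 9.63, 9.87 and 10.00 in KO, against 8.48, 8.51 and 8.56 in WT (1.32, SE 0.19, adjusted p = 0.000653). It was 1 of 20 genes of endoplasmic reticulum stress to rise, while Asns fell (10% called). Of 15 NRF2 and redox genes 3 fell (20%), the glutathione transferase Gstp1 (-1.52, adjusted p = 0.00763), Gclc (-0.70) and Osgin1 (-1.26). Gclc and Osgin1 lost their calls without 5 and 6 arrays (adjusted p up to 0.127 and 0.149). When the clock score was a covariate, these genes lost their calls (adjusted p between 0.135 and 0.758).

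Gstp3, another member of the same pi class of glutathione transferases, rose where Gstp1 fell. It had 11.60, 11.64 and 11.62 in KO, against 6.75, 7.39 and 6.33 in WT (4.79, SE 0.36, adjusted p = 3.31e-07). The 3 KO arrays lay within 0.04 of each other. Near-identical copies of this family can share probes. Other conjugating enzymes gave 2 further falls among 39 Gst, Ugt and Sult genes, beside Gstp1: Gsto1 (-0.49) and Ugt2b35 (-0.65). These 2 lost their calls without 3 and 4 arrays (adjusted p up to 0.118 and 0.0674). In all, 1 of the 39 rose and 3 fell (10.3%, against 2.98% of all genes).

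Drug-metabolising cytochromes changed in a few members. Cyp2c37, an arachidonic acid epoxygenase, had 6.00, 6.16 and 6.31 in KO, against 8.40, 9.04 and 8.75 in WT (-2.57, SE 0.28, adjusted p = 2.96e-05). Cyp2c55 had 3.76, 3.55 and 3.06 in KO, against 5.87, 6.52 and 6.21 in WT (-2.74, SE 0.34, adjusted p = 0.000126), with a second, dim probe set that differed by 0.22. Cyp2c39 rose by 1.62 and lost its call without 2 arrays (adjusted p up to 0.074, without KO replicate 2). In all, 2 of 23 Cyp2b, Cyp2c and Cyp3a genes fell and 1 rose (13%, against 2.98% of all genes). The carboxylesterase Ces1g (2.10) and the xenobiotic receptor Nr1i2 (0.83) rose, and Nr1i2 lost its call without 1 array (adjusted p = 0.0678, without KO replicate 3). Of the called genes in this paragraph Cyp2c37 alone kept its call with the clock score as a covariate, and Cyp2c55 reached an adjusted p of 0.0669.

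In bile acid metabolism, 1 of 27 genes rose and 5 fell (22.2%, against 2.98% of all genes, median -0.16). The riser was Cyp7a1, the rate-limiting enzyme of bile acid synthesis, at 8.66, 9.02 and 7.94 in KO against 6.88, 6.95 and 6.70 in WT (1.70, SE 0.39, adjusted p = 0.0213). Among those that fell, Nr0b2, or SHP, a repressor of Cyp7a1, had 5.17, 5.07 and 5.26 in KO, against 6.17, 6.71 and 6.57 in WT (-1.32, adjusted p = 0.0411). The FGF15 receptor Fgfr4, also known to hold Cyp7a1 down, differed by -0.55. A link between these falls and Cyp7a1 was not tested. Abcb11, the pump that exports bile salts, had 9.01, 9.07 and 9.32 in KO, against 9.87, 9.88 and 10.00 in WT (-0.78, SE 0.13, adjusted p = 0.00184). Hsd3b7 (-0.76) and Amacr (-0.51), both on the path from cholesterol to bile acids, fell as well. Cyp7a1, Nr0b2, Fgfr4, Hsd3b7 and Amacr lost their calls without 5, 6, 6, 4 and 4 arrays (adjusted p up to 0.118, 0.153, 0.0848, 0.0913 and 0.128), and all 5 lost them with the clock score as a covariate (adjusted p up to 0.704, for Fgfr4). Abcb11 kept its call in each of these fits.

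Genes that differ between the sexes in mouse liver, under growth hormone control, changed in both directions. Of 25 male-biased genes 2 rose and 6 fell (32%, against 2.98% of all genes, median -0.22). Of 28 female-biased genes 4 rose and 1 fell (17.9%, median 0.03), and the 1 that fell was Bcl6. Bcl6, which stands on the female-biased list here although it is known as a male-biased repressor of female-biased genes, had 3.44, 3.30 and 3.56 in KO, against 5.50, 6.82 and 6.50 in WT (-2.84, SE 0.53, adjusted p = 0.0048). Selenbp2, a selenium-binding protein, had 6.23, 5.79 and 8.21 in KO, against 10.28, 10.67 and 10.91 in WT (-3.88, SE 0.76, adjusted p = 0.00721). The pheromone carrier Mup20 fell by 0.89, and Serpina1e and Elovl3, described above, are on the male-biased list too. Fmo2, a flavin monooxygenase, had 5.83, 6.01 and 6.45 in KO, against 3.98, 3.69 and 3.89 in WT (2.24, SE 0.22, adjusted p = 7.82e-06). The peroxisomal transporter Abcd2 (3.27) and the neurotrophin receptor Ntrk2 (2.49) rose with it. The sex of the mice is not given; of 4 sex chromosome genes limma called 0, with 1 at an unadjusted p under 0.05. Selenbp2 lost its call without KO replicate 2 (adjusted p = 0.0508), and Bcl6, Selenbp2, Mup20 and Abcd2 lost theirs with the clock score as a covariate (adjusted p = 0.498, 0.0796, 0.281 and 0.323).

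The BMP pathway itself showed few changes. Of 20 extracellular BMP modulators, the class to which Kcp belongs, limma called 0, with 4 at an unadjusted p under 0.05 (median -0.01). Of these 20 genes 11 averaged below 2 in both groups, where background limits what can be seen. Of 17 BMP and TGF-beta ligands limma called 0, with 2 at an unadjusted p under 0.05, and 5 of the 17 averaged below 2 in both groups. Of 22 receptors and SMADs 1 rose, 4.55% against 2.98% of all genes: Tgfbr2, the type II TGF-beta receptor, at 4.23, 4.14 and 3.66 in KO against 3.08, 3.21 and 3.35 in WT (0.80, SE 0.17, adjusted p = 0.012). These counts are near the share over all genes.

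Targets of the pathway moved in both directions, 2 of 19 higher and 2 lower (21.1%, against 2.98% of all genes, median -0.05). At an unadjusted p under 0.05, 2 were higher and 6 lower, among them Id3 (-0.68, adjusted p = 0.0559). Id1, the most direct BMP target, had 2.76, 2.33 and 2.39 in KO, against 2.43, 2.69 and 2.50 in WT (-0.05, adjusted p = 0.959), and the groups overlapped. The inhibitory SMAD gene Smad7 differed by -0.13 (adjusted p = 0.873), and the hepcidin gene Hamp averaged 11.28 in KO and 11.49 in WT (-0.20, adjusted p = 0.834). Id2, another inhibitor of helix-loop-helix factors, fell, with 7.82, 7.29 and 7.78 in KO against 8.85, 8.82 and 8.86 in WT (-1.22, SE 0.23, adjusted p = 0.00484). Tgfbi, a matrix protein induced by TGF-beta, had 6.96, 6.93 and 6.72 in KO, against 6.24, 6.23 and 6.17 in WT (0.66, SE 0.13, adjusted p = 0.00895). The matricellular proteins Ccn2 (1.36) and Ccn1 (-1.49) went opposite ways. Iron handling genes (16) and extracellular matrix genes (28) had 0 calls in limma, with 3 and 7 at an unadjusted p under 0.05 and medians of -0.03 and 0.02. Tgfbr2, Ccn2 and Ccn1 lost their calls without 3, 5 and 4 arrays (adjusted p up to 0.0665, 0.113 and 0.152). When the clock score was a covariate, Tgfbr2, Id2, Tgfbi, Ccn2 and Ccn1 all lost theirs (adjusted p between 0.0662 and 0.409), with differences of 0.83, -1.66, 0.79, 1.58 and -1.75.

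**Figure D4:**
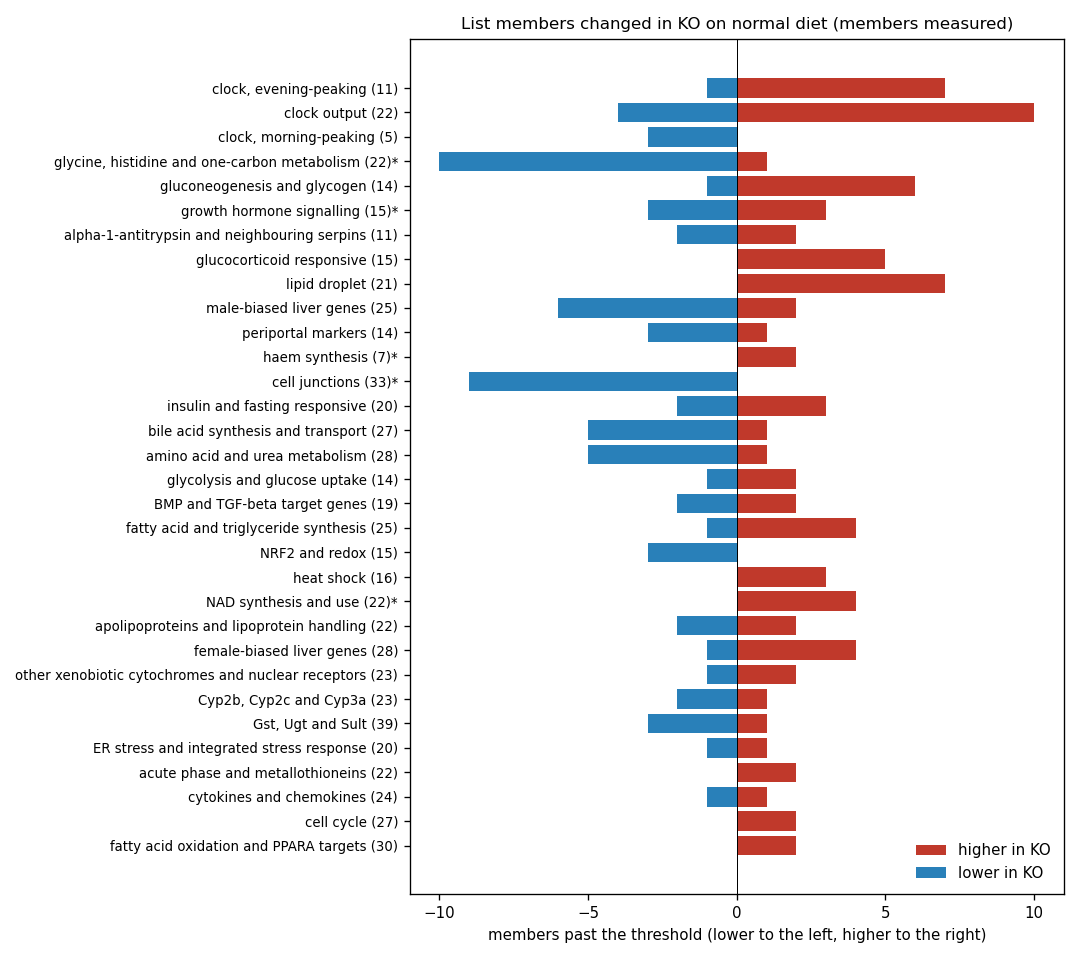
Number of list members past the threshold (horizontal axis) that were higher in KO (red, to the right) or lower in KO (blue, to the left) on ND, for each list with at least 2 such members; the number measured stands in brackets and an asterisk marks a list chosen after its values were seen. Clock lists stand at the top, ordered by the share of members called.

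Beyond the lists, Mme, the neprilysin that cuts small peptides at the cell surface, had 7.92, 7.59 and 7.56 in KO, against 3.38, 2.71 and 2.12 in WT (4.96, SE 0.38, adjusted p = 4.55e-07). The aspartic protease Ctse had 6.36, 6.08 and 6.26 in KO, against 1.44, 2.04 and 2.01 in WT (4.40, SE 0.33, adjusted p = 3.34e-07). The complement gene C4a had 6.33, 7.18 and 7.05 in KO, against 4.01, 4.27 and 3.78 in WT (2.84, SE 0.28, adjusted p = 9.61e-06). It was the 1 of 22 complement genes to pass, 4.55%, near the 2.98% of all genes. Mme, Ctse and C4a kept their calls under every alternative run. Among the falls, the bile-acid-sensitive ion channel Asic5 had 4.67, 4.57 and 4.99 in KO, against 7.47, 7.84 and 7.80 in WT (-2.96, SE 0.19, adjusted p = 5.75e-08). The long noncoding RNA Rian, from the imprinted Dlk1-Meg3 region, had 0.67, 0.39 and 0.38 in KO, against 3.23, 2.32 and 2.90 in WT (-2.34, SE 0.20, adjusted p = 2e-06), and was the 1 of 9 imprinted genes listed to pass. AF357355 had -0.05, 1.02 and 0.59 in KO, against 3.56, 3.75 and 3.32 in WT (-3.02, adjusted p = 0.00363), and AF357425 had 1.67, 0.95 and 1.74 in KO, against 4.27, 4.06 and 3.70 in WT (-2.56, adjusted p = 5.81e-05); both are on chromosome 12, as Rian is. The retinol dehydrogenase gene Rdh16f2 (-2.66), the calcium-dependent kinase Camk1d (-2.53) and the drug exporter Abcb1b (-2.45) were other large falls. AF357355, Rdh16f2 and Abcb1b lost their calls with the clock score as a covariate (adjusted p = 0.441, 0.263 and 0.13; differences of -2.42, -2.38 and -3.52), and Abcb1b also without 2 arrays (adjusted p up to 0.107, without WT replicate 1).

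Whether the genotype difference was the same on the high-fat diet was asked of KO and WT livers on HFD, 3 arrays each, none of which is shared with ND. On HFD 75 genes were called, 0.338% of those tested. The lists shared 28 genes, 4.24% of the ND calls and 37.3% of the HFD calls. Of the 28, 11 were higher on both diets, 12 lower on both and 5 opposite. Of the 661 ND genes 388 had the same sign on HFD, whatever their p. A direct test of the ND difference minus the HFD difference called 183 genes, 0.825% of all, and 139 of the 661 ND genes were among them, 134 with the larger size on ND. The 661 were picked by their ND difference, and the same ND arrays enter this test. A larger size on ND therefore follows in part from how they were picked.

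The difference was present on both diets for a small set. Serpina1d differed by -9.26 on ND and -8.14 on HFD, and Serpina1e by -4.36 and -2.28. Gstp3 differed by 4.79 and 3.20 (adjusted p on HFD 0.000229), and the water channel Aqp4 by 1.91 and 3.03. The arsenic methyltransferase As3mt (-1.95 and -2.54), the RNA-binding protein Habp4 (-0.99 and -1.10), Tc2n (-2.62 and -1.59), Olig1 (-1.82 and -1.56) and Cyp2c55 (-2.74 and -1.84) were lower on both. The riboflavin kinase Rfk (1.62 and 0.80), the exonuclease-domain gene Exd1 (1.45 and 1.37) and Tgfbi (0.66 and 0.64) were higher on both. For none of the genes named in this paragraph did the difference between the diets pass (limma). In TG against the same WT livers on ND, Gstp3 (4.29), Cyp2c55 (-3.13), Tc2n (-1.28), Habp4 (-0.86) and Tgfbi (0.90) were also called, in the same direction as in KO (limma). As3mt (-1.23), Olig1 (-0.61), Serpina1d, Serpina1e, Aqp4, Rfk and Exd1 were not called in TG. Aqp4, As3mt, Habp4, Olig1, Cyp2c55, Exd1 and Tgfbi lost their ND call with the clock score as a covariate (adjusted p between 0.0669 and 0.497).

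For many large ND changes the HFD difference was near 0. Usp2 differed by 4.06 on ND and 0.06 on HFD (difference of differences 4.01, adjusted p = 2.45e-05), Ciart by 3.40 and 0.16 (adjusted p = 0.00335) and Per1 by 2.55 and 0.12 (adjusted p = 0.0423). Ctse differed by 4.40 on ND and -0.87 on HFD (5.27, adjusted p = 1.66e-05), and Mme by 4.96 and -0.15 (5.11). In lipid storage, Lpin1 differed by 4.35 and 0.74 (3.61, adjusted p = 0.0157), Thrsp by 3.03 and -0.36 (3.40) and Cidec by 3.50 and -0.94 (4.44, adjusted p = 0.0233). Cldn1 differed by -2.12 and 0.19 (-2.31, adjusted p = 2.45e-05). The clock score, which separated KO from WT on ND, had HFD means of 2.04 in KO and 1.82 in WT. Mug2, a protease inhibitor of the alpha-macroglobulin family, was lower in KO on ND (-0.81, adjusted p = 0.0495) and higher on HFD (3.24), a difference of -4.05 (adjusted p = 2.51e-06), and lost its ND call without 5 of 6 arrays (adjusted p up to 0.234, without KO replicate 2), and also when the clock score was a covariate (adjusted p = 0.701). Trehalase, Treh, was the reverse, higher on ND (1.23) and lower on HFD (-1.51), and lost its ND call without KO replicate 1 (adjusted p = 0.0546) and with the clock score (adjusted p = 0.245).

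**Figure D5:**
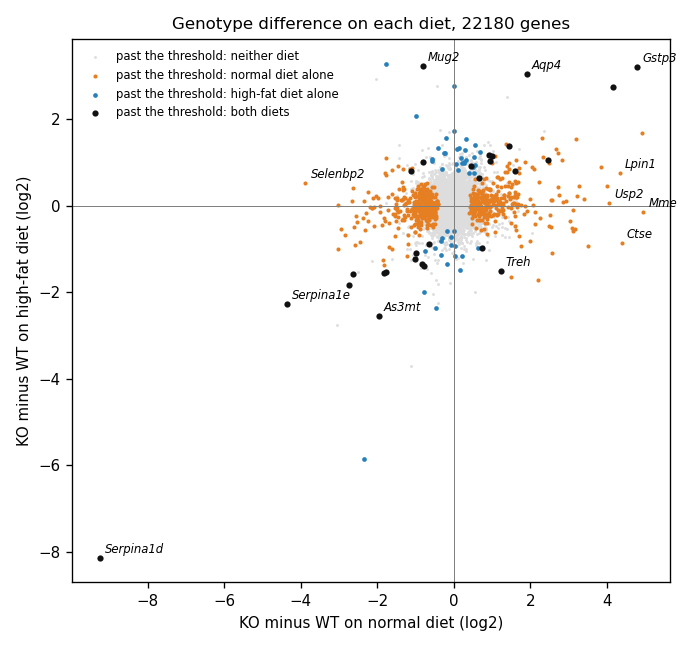
KO minus WT on ND (horizontal axis, log2) against KO minus WT on HFD (vertical axis, log2) for every gene; orange points passed on ND alone, blue on HFD alone and black on both. Serpina1d lies at -9.26 and -8.14, while Mme, Ctse, Usp2 and Lpin1 lie far to the right at HFD differences between -0.87 and 0.74.

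The TG livers on ND were set against the same 3 WT livers, so the values stand side by side without a test between them. Of the 661 genes called in KO on ND, 69 were also called in TG against WT in the same direction (limma). The WT arrays enter both comparisons, and the genes given here are a selection. Gstp3 was higher than WT by 4.79 in KO and 4.29 in TG, C4a by 2.84 and 3.82, and Mt2 by 3.21 and 4.75. Asic5 differed by -2.96 in KO and -3.76 in TG, and Rian by -2.34 and -1.87. Serpina1d differed by -9.26 in KO, while TG and WT both averaged 11.04, Usp2 by 4.06 and 0.43, and Lpin1 by 4.35 and 0.79. Kcp itself differed by -0.52 in KO and 3.01 in TG.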

How the data were processed

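The values used are the log2 expression levels of probe sets on 19 arrays, deposited by the authors on a scale common to the arrays. Per the submitters' processing notes, limma, RMA and affy were used; their versions and steps are not given in the sources used here. The log base was inferred from these names and the range of the values, and another base would scale every difference by 1 factor. No read depth exists for arrays, and 3 arrays per group limit the precision.

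Of 41345 probe sets 23521 carry 1 symbol in the platform annotation, 1814 several and 16010 none. The brightest probe set stood for a gene with several (1082 symbols), which left 22180 genes, 21994 matched to RefSeq (GRCm38.p6) by Entrez identifier. All 19 arrays were fitted as 6 group means with limma 3.58.1 (lmFit, eBayes) under R 4.3.3 (residual degrees of freedom 13, prior 4.76), after a test of the procedure on simulated data. Differences are KO minus WT, tests are two-sided, and genes with a Benjamini-Hochberg adjusted p under 0.05 were called. SD is the spread between arrays of a group.

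The genes named come from a rule: the 15 largest rises and 15 largest falls without overlap between the groups, up to 4 called members of each list with the smallest p, every member of the serpin, clock and BMP modulator lists described, 8 genes with the smallest p for the difference between diets, and Kcp, Id1, Hamp and Smad7. Other genes named, and the lists of cell junctions, glycine and histidine metabolism, NAD, haem and growth hormone signalling, were chosen after their values were seen. The members and lists were chosen with earlier results of these data known. The alternatives were 6 arrays alone, other variance priors, array weights, a filter on dim genes, other rules for probe sets, other normalization, the clock score as a covariate, each array left out and, added after seeing the data, the TG arrays left out. Promoters came from a RefSeq table of GRCm38.p6 (32851 promoters) and were aligned locally in pairs.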

Additional observations from a re-analysis of the deposited data

Results flagged for a closer look

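The genotype difference on ND itself differed from that on HFD for 50 genes followed here, by the direct test of the ND difference minus the HFD difference (limma, adjusted p under 0.05). The value given for each is that difference of differences on the log2 scale.

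Among clock and clock output genes it was 4.01 for Usp2, 3.24 for Ciart, 3 for Wee1, 2.82 for Alas1, 2.42 for Per1, 2.05 for Coq10b, 2.03 for St3gal5 and 1.45 for Per3. It was -1.41 for Dtx4 and -2.09 for Avpr1a, which had fallen in KO on ND. Nampt, of NAD salvage, had 2.28. Among glucocorticoid-responsive genes Fkbp5 had 2.51 and Dusp1 1.69.

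Among lipid genes the test called 3 of 21 for lipid droplets, 3 of 25 for fatty acid and triglyceride synthesis and 2 of 30 for fatty acid oxidation. Plin4 differed by 1.46 on ND and 1.37 on HFD and did not pass (adjusted p = 0.977, limma). Cidea, Cd36, Mgll, Dgat2 and Elovl3 did not pass either. The members of these lists that passed had larger rises in KO on ND. The values were 4.44 for Cidec, 3.61 for Lpin1, 3.61 for Acot3, 3.4 for Thrsp, 2.69 for Mogat1, 2.04 for Apoa4, 1.33 for Cyp4a12a, 1.28 for Lpin2 and 3.71 for the lysolipid carrier Mfsd2a. Aacs, which makes acetoacetyl-CoA from ketone bodies, had 2.76, and the lipase Abhd6, higher in KO on ND and lower on HFD, had 1.73. Abhd6 lost its ND call without any 1 of the 6 arrays (adjusted p up to 0.213), and also without the TG arrays (0.0858), with the 6 arrays alone (0.124), after repeated quantile normalization (0.0532) and with the clock score (0.273). Apom, an apolipoprotein that carries sphingosine 1-phosphate, had -1.21. In glucose, bile acid and amino acid metabolism the values were 1.12 for Pck1, 0.9 for Foxo3, 2.39 for Cyp7a1, 1.17 for Gpt2, -1.33 for Agxt and -0.99 for Hal. Trehalase, Treh, had 2.74.

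The protease genes Ctse and Mme had 5.27 and 5.11, and Mug2, a protease inhibitor, had -4.05. The junction proteins Cldn1 and Ocln had -2.31 and -1.3. Immune and signalling genes included Marco with -2.46, the chemokine Ccl9 with -1.92, the complement gene C4a with 1.78 and the receptor Tgfbr2 with 1.07. Further values were 3.23 for Tcim, 1.68 for Fmo2, 1.42 for the ribosomal protein gene Rpl3, -2.14 for Camk1d, -2.76 for Rdh16f2 and -2.42 for the ion channel Asic5. The noncoding RNAs Rian and Lncbate1 had -2.44 and -2.12, and AF357425 had -2.32. The 3 probe sets of Rpl3 disagreed, with KO minus WT on ND of 2.47, -0.03 and -0.25.

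Outside the genes with 1 symbol, 17824 probe sets had none or several, and 144 of them were called in KO against WT on ND, 70 higher and 74 lower.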

How the results depend on the processing

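The count of genes that differed between KO and WT on ND was 661, and lay between 445 and 853 under 10 other settings, among them the 6 arrays alone (445), no TG arrays (623), medians centred (618, 318 higher and 300 lower) and dim genes with a mean under 2 left out (853). With the clock score as a covariate it was 69. Leaving out 1 array at a time gave 353 to 494 genes. The count for the difference between the diets was 183, and moved to 294 with the filter on dim genes and to 23 with the clock score as a covariate; leaving out 1 array gave 88 to 189. The clock score difference of 1.69 lay between 1.18 and 2.05 without 1 array. Of 160 called genes, 150 followed through 17 settings and 10 dim ones through 16, 34 kept their call under each setting run, 31 lost it with the 6 arrays alone, 64 lost it without at least 1 array and 125 lost it with the clock score as a covariate. Npas2 was the only one whose direction turned, to 0.29 with that covariate. The cause of these shifts was not tested. No paired analysis was possible because the animal numbers in the titles differ between the genotypes, so that no replicate number is shared. Dim genes, 12523 of them with a mean below 2, limit the size of fall that can be seen.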

Other observations

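Genes of growth hormone signalling, a list chosen after its values were seen, changed in both directions. Of 15 genes 3 were higher and 3 lower (40%, against 2.98% of all genes). The feedback inhibitor Socs2 had 4.71, 4.53 and 4.67 in KO, against 1.96, 2.50 and 3.47 in WT (1.99, adjusted p = 0.0472), while the transcription factor Stat5b fell by 0.72 (adjusted p = 0.0162). Socs2 lost its call without 5 of 6 arrays (adjusted p up to 0.197, without WT replicate 1) and Stat5b without 3 (0.0926, without WT replicate 2). Trim24, a co-regulator of nuclear receptors, rose by 0.85 and lost its call without KO replicate 3 (adjusted p = 0.0535). The liver transcription factor Onecut1 (2.49) also rose, and Igfbp3 (-0.59) and Bcl6, described above, fell; Onecut1 and Igfbp3 lost their calls without 5 and 4 arrays (adjusted p up to 0.158 and 0.112). The ribonucleotide reductase subunit Rrm2 had 3.56, 3.73 and 2.60 in KO, against 1.62, 1.56 and 1.63 in WT (1.69, adjusted p = 0.00459). It was 1 of 2 cell cycle genes of 27 to rise (7.41%, against 2.98% of all genes), with Ccne1 (1.10). The second, dim probe set of Rrm2 differed by 0.13, and the mean of both by 0.91. Ccne1 lost its call without 3 arrays (adjusted p up to 0.0907) and with the 6 arrays alone (0.0647). The chemokine Ccl9 had 7.09, 6.09 and 7.48 in KO, against 8.87, 8.84 and 8.76 in WT (-1.94, SE 0.30, adjusted p = 0.000881). With the clock score as a covariate Socs2, Stat5b, Trim24, Rrm2 and Ccl9 lost their calls (adjusted p = 0.719, 0.557, 0.384, 0.369 and 0.164), as did Onecut1, Igfbp3 and Ccne1 (0.696, 0.563 and 0.284).

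The 23 genes that moved the same way on both diets were unevenly spread over the chromosomes. Of these, 6 lie on chromosome 19 (26.1%) and 4 on chromosome 12 (17.4%), which hold 3.27% and 3.4% of the genes with a known chromosome, and none lies on chromosome 6, where Kcp is. The 6 on chromosome 19 are Gstp3, Rfk, Asah2, Cyp2c55, As3mt and Rab11fip2, and those on chromosome 12 include Serpina1d, Serpina1e and Tc2n. Over all 661 ND calls the shares were 6.66% on chromosome 19 and 5.75% on chromosome 12. These counts were made after the genes were seen, and no test was run on them.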
